A study of Homo sapiens with 6 samples.

Results

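The ligands of the ERBB receptors were examined in SKOV3.ip1 ovarian cancer cells that carried one of a pair of PEA-15 mutants. Members were taken by gene symbol from a list of 10 ligands: EGF, TGFA, HBEGF, AREG, EREG, BTC, EPGN, NRG1, NRG2 and NRG4. Every probe set whose annotation named exactly 1 of these genes was kept, which gave 22 of 54613 non-control probe sets. These 22 covered 8 of the 10 genes. AREG and EPGN had no such probe set in the annotation used and are not analysed here.

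Total RNA was hybridised to 6 Affymetrix HG-U133 Plus arrays. SKOV3.ip1 cells descend from the human ovarian carcinoma line SKOV3 by passage through the peritoneal cavity of mice, and both derivatives were grown in medium with 10% serum. The S116D line (3 arrays) was stably transfected with a vector for phosphomimetic PEA-15, in which aspartic acid replaces serine. The S116A line (3 arrays) was stably transfected with a vector for PEA-15 in which alanine takes the place of Ser116 and cannot be phosphorylated. The labels disagree on the S116D form, because the titles name Ser116 alone, the sample characteristics add Ser104, and the treatment text gives Ser16. Whether a line is 1 clone, and whether its arrays came from separate cultures, is not given in the sources used here, so the spread behind every p-value is that between arrays and may be technical. Arrays of parental or empty-vector cells were not analysed here. Each difference is therefore between the lines and is given on the log2 scale, S116A subtracted from S116D.

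EGF family ligands are made as membrane-anchored or secreted precursors that share an EGF-like fold held by disulfide bonds. Metalloproteases of the ADAM family release the soluble growth factor, which binds ERBB receptors and drives them to pair, and the paired kinases feed the RAS, ERK and PI3-kinase pathways. EGF, TGF-alpha and amphiregulin bind EGFR, HB-EGF, betacellulin and epiregulin bind EGFR and ERBB4, neuregulin-1 and neuregulin-2 bind ERBB3 and ERBB4, and neuregulin-4 binds ERBB4. PEA-15 binds ERK and holds it in the cytoplasm, and its binding partners change with phosphorylation, so ERK output stands downstream of these ligands and of the transfected protein alike. In ovarian carcinoma these ligands are known as autocrine factors, HB-EGF and neuregulin-1 in particular.

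The arrays were closely scaled, with medians between 7.862 and 7.893. Log2 ratios between the 3′ and 5′ ends of control transcripts, which track RNA quality, overlapped between the lines, at 2.271 to 2.474 in S116D and 2.328 to 2.428 in S116A for ACTB, and at 0.697 to 0.793 in S116D and 0.653 to 0.776 in S116A for GAPDH. S116D 1, S116A 1 and S116A 2 were set apart from S116D 2, S116D 3 and S116A 3 on the second principal component, which held 20.3% of the variance between arrays and matches no label. Differences within each of these array sets are given below beside the results. The brighter of 2 probe sets for PEA15 itself averaged 12.55 ± 0.12 in S116D and 12.61 ± 0.099 in S116A (SD, n = 3 each). Neither PEA15 probe set passed the threshold (limma adjusted p = 0.82 and 0.20). Epithelial markers of the line (KRT7, KRT8, KRT18, KRT19, EPCAM, PAX8, WT1 and MUC16) were measured on 20 probe sets. Of these, 6 (30%) fell in S116D and none rose, against 4.19% of all probe sets called lower and 4.36% called higher. The falls were in KRT7, KRT8, KRT18, KRT19 and EPCAM, and no probe set of PAX8, WT1 or MUC16 was called. The summed log2 signal of the 20 probe sets was 186.0 to 188.9 in S116D and 192.8 to 195.5 in S116A. The part of this gap in the ligand differences was not tested. MUC16 read below every array median on its probe set (means of 6.59 in S116D and 6.72 in S116A). Markers of leukocytes, endothelium and fibroblasts gave no call by limma on 33 probe sets, and 1 had an unadjusted p under 0.05. Of the 33, 23 read below every array median, among them all 5 of the leukocyte marker PTPRC, and 10 did not, among them CD3E 205456_at (mean of 9.54 over all arrays), PECAM1 1559921_at (9.52), DCN 201893_x_at (9.48) and COL1A1 217430_x_at (10.12). The summed log2 signals of each list overlapped between the lines, at 43.6 to 44.0 in S116D and 43.5 to 44.1 in S116A for leukocytes, 59.5 to 59.8 in S116D and 59.4 to 60.2 in S116A for endothelium, and 121.4 to 123.3 in S116D and 121.6 to 122.4 in S116A for fibroblasts.

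Transcripts of 2 ligand genes, HBEGF and NRG1, were higher in the S116D line, on 2 of 4 and 1 of 6 probe sets. TGFA transcripts were lower on 1 of 3 probe sets. That TGFA call was lost with any 1 array left out (limma adjusted p between 0.055 and 0.11). On the probe set with the largest change of each gene, NRG1 rose 1.71-fold, HBEGF rose 1.41-fold and TGFA fell 1.25-fold. EGF, EREG, BTC, NRG2 and NRG4 did not pass the threshold on any of their 9 probe sets. In total 4 of 22 ligand probe sets were called, 3 higher and 1 lower, by limma with Benjamini-Hochberg adjustment over all 54613 probe sets (adjusted p under 0.05). These 4 make up 18.2% of the ligand probe sets, against 8.55% of all probe sets called in either direction, 4.36% called higher and 4.19% called lower. The count was 2 without S116A 2 or without S116D 3. The count over all probe sets fell as well, from 4672 to 2986 and 2772. The arrays of the lines did not overlap for 7 of the 22 (31.8%), against 24.0% of all probe sets. The median difference over the 22 was 0.043, against 0.003 over all probe sets. Probe sets of 1 gene share its transcripts, so these counts are not counts of independent measurements. Arrays cannot tell more expressing cells from more RNA per cell.

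**Figure D1:**
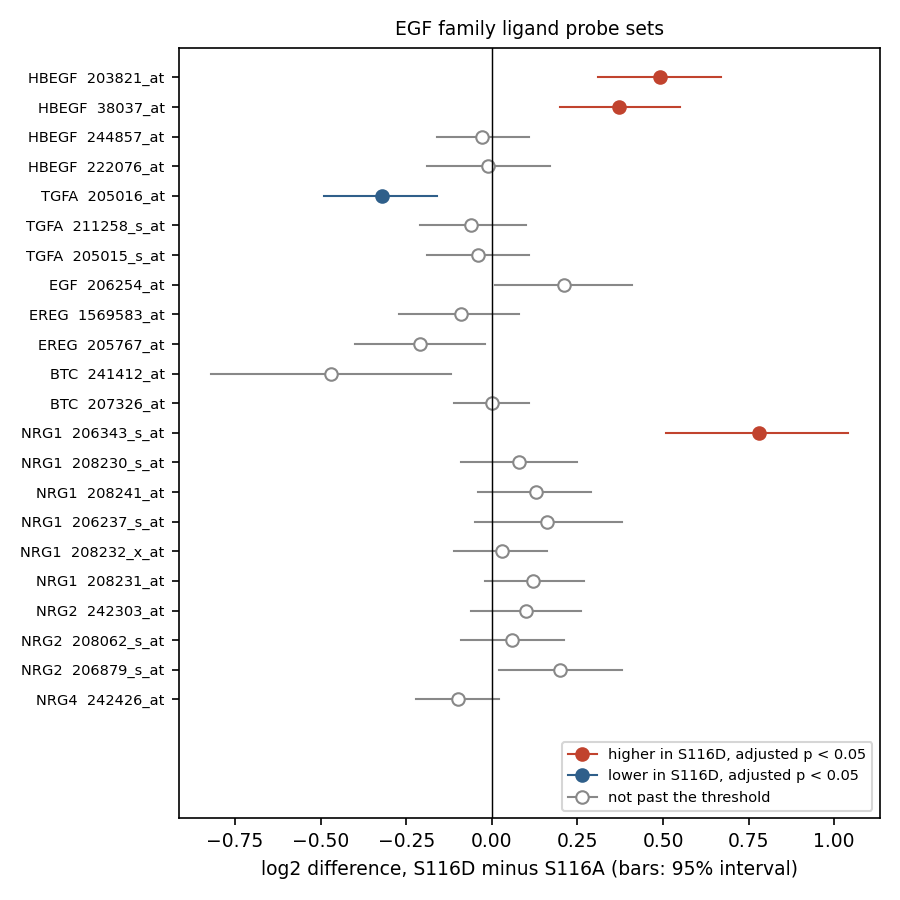
Log2 difference, S116D minus S116A, of each of the 22 ligand probe sets (points), with limma's 95% interval (bars). Filled points are called at an adjusted p under 0.05: NRG1 206343_s_at at 0.78, HBEGF 203821_at at 0.49 and 38037_at at 0.37, and TGFA 205016_at at -0.32, while without a call the intervals of BTC 241412_at and EREG 205767_at lie wholly below 0 and those of EGF 206254_at and NRG2 206879_s_at wholly above it.

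HBEGF encodes heparin-binding EGF-like growth factor, a ligand of EGFR and ERBB4 whose membrane-anchored precursor also serves as the diphtheria toxin receptor. Its probe set 203821_at read 10.44, 10.48 and 10.58 on the S116D arrays, against 9.97, 9.97 and 10.09 on the S116A arrays. All S116D arrays were above all S116A arrays. The means were 10.50 ± 0.074 in S116D and 10.01 ± 0.067 in S116A (SD, n = 3 each), a difference of 0.49 ± 0.08 (SE; 95% interval 0.31 to 0.67; limma adjusted p = 0.0070). Within the array sets the difference was 0.47 and 0.45.

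The second called HBEGF probe set moved the same way. It read 8.60, 8.51 and 8.63 in S116D, against 8.28, 8.11 and 8.23 in S116A, again with no overlap. This probe set, 38037_at, rose 1.30-fold, by 0.37 ± 0.08 (SE, limma adjusted p = 0.018), and by 0.41 and 0.34 within the array sets. Its call was lost without S116A 2 (adjusted p = 0.069) and without S116D 3 (0.078), whereas that of 203821_at held with any 1 array left out, at adjusted p between 0.010 and 0.038. The other pair of HBEGF probe sets, 222076_at and 244857_at, read below every array median. They differed by -0.01 (95% interval -0.19 to 0.17) and -0.03 (-0.16 to 0.11), and the lines overlapped on both. The positions of the probes along the transcript were not used.

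TGFA encodes transforming growth factor alpha, an EGFR ligand that epithelial and carcinoma cells make for themselves. Its probe set 205016_at read 11.18, 11.25 and 11.19 on the S116D arrays, against 11.56, 11.48 and 11.55 on the S116A arrays. Every S116D array was below every S116A array, opposite to HBEGF. The means were 11.21 ± 0.038 in S116D and 11.53 ± 0.046 in S116A (SD, n = 3 each), a difference of -0.32 ± 0.07 (SE; 95% interval -0.49 to -0.16; limma adjusted p = 0.026). The difference was -0.34 and -0.33 within the array sets and stayed between -0.35 and -0.31 with 1 array left out. The call did not survive the loss of any 1 array, at adjusted p between 0.055 and 0.11. The other TGFA probe sets, 205015_s_at and 211258_s_at, differed by -0.04 (95% interval -0.19 to 0.11) and -0.06 (-0.21 to 0.10), with overlapping lines.

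**Figure D2:**
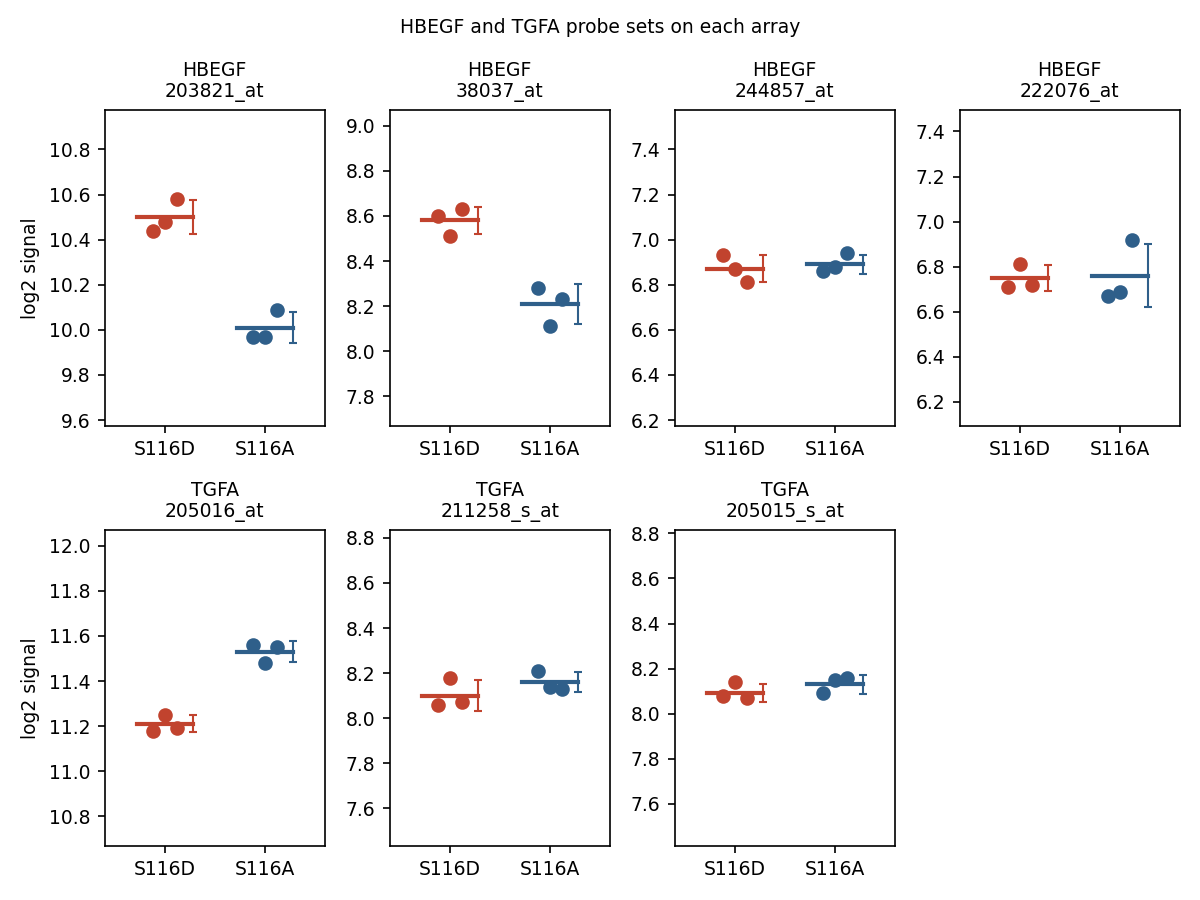
Log2 signal of the HBEGF (upper row) and TGFA (lower row) probe sets on each array, S116D left and S116A right, with the mean (line) and SD (bar) of 3 arrays, each panel spanning the same log2 range. S116D lies above S116A without overlap for HBEGF 203821_at and 38037_at and below it for TGFA 205016_at, and the lines overlap in the other 4 panels.

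The sequences upstream of HBEGF and TGFA are shown because these ligands bind the same receptor and moved in opposite directions. They are the 250 bases before the annotated gene start, 5′ to 3′ on the gene's strand, from RefSeq (GRCh38.p14). HBEGF lies on the minus strand, at chr5:140346604-140346853, and TGFA on the minus strand, at chr2:70553827-70554076. Capitals mark matches to the SP1 box GGGCGG on either strand.
HBEGF: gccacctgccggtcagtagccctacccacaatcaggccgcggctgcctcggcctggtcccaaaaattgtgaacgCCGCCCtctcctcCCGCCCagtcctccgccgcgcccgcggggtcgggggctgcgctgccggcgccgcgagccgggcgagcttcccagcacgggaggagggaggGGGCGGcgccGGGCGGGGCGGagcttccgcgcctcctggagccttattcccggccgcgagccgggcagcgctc
TGFA: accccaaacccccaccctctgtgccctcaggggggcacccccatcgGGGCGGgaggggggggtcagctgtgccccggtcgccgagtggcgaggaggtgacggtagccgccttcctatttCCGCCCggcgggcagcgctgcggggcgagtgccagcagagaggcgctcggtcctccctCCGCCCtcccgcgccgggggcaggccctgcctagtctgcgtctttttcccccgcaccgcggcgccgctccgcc
The windows were searched on both strands for 4 motifs, AP-1 (TGANTCA), ETS (CCGGAA), SP1 (GGGCGG) and the TATA box (TATAAA), which do not overlap each other here. HBEGF held 5 matches to the SP1 box, of which the neighbouring pair from -63 to -53 share a base, and TGFA held 3. No AP-1, ETS or TATA letters were found in either window. Of 35116 RefSeq promoters searched over the same length, 42.6% held the SP1 box, 14.5% the ETS letters, 10.7% the TATA letters and 6.57% the AP-1 letters. GC content was 76.4% for HBEGF and 75.6% for TGFA, against a median of 58.0% over all promoters. Of the 8 ligand genes with a promoter searched, which do not include NRG1 or NRG4, 4 held the SP1 box (HBEGF, TGFA, NRG2 and AREG). The TATA letters were found in AREG, EREG and EPGN, the AP-1 letters in EGF and the ETS letters in AREG. These matches describe letters and do not show binding.

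Several ligand genes are neighbours. In the RefSeq gene order, EPGN, EREG, AREG and BTC follow each other on chromosome 4 with no other protein-coding gene between them, and NRG2 and HBEGF lie on chromosome 5 with 5 protein-coding genes between them. The measured members of the first run, EREG and BTC, gave no call, and of the second pair HBEGF was called and NRG2 was not. The difference between neighbours was not tested.

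The neuregulins were read by 10 probe sets, 6 of them for NRG1. Neuregulin-1 is a ligand of ERBB3 and ERBB4 made in many isoforms, which differ at the amino end and within the EGF-like domain. The called NRG1 probe set, 206343_s_at, is paired by the annotation with the transcript record of SMDF, the isoform with a cysteine-rich domain, although a probe set of this type can match several transcripts of the gene. It read 11.68, 11.91 and 12.04 on the S116D arrays, against 11.14, 10.93 and 11.22 on the S116A arrays. The lowest S116D array lay above the highest S116A array. The means were 11.87 ± 0.18 in S116D and 11.10 ± 0.15 in S116A (SD, n = 3 each), a difference of 0.78 ± 0.11 (SE; 95% interval 0.51 to 1.04; limma adjusted p = 0.0044). It was 0.64 and 0.75 within the array sets and stayed called with any 1 array left out, between 0.69 and 0.87 (adjusted p 0.0030 to 0.027).

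The other 5 NRG1 probe sets did not pass the threshold, at adjusted p between 0.36 and 0.90. Probe set 206237_s_at read 8.13, 8.38 and 8.30 in S116D, against 7.96, 8.20 and 8.16 in S116A, a difference of 0.16 (95% interval -0.05 to 0.38). Probe set 208241_at, paired with the gamma form, read 8.21, 8.30 and 8.32 in S116D, against 8.16, 8.07 and 8.22 in S116A, a difference of 0.13 (-0.04 to 0.29). In both, the lines overlapped by 1 or more arrays.
Probe set 208230_s_at read 8.65, 8.59 and 8.56 in S116D, against 8.44, 8.61 and 8.50 in S116A, a difference of 0.08 (-0.09 to 0.25). The remaining pair read below every array median. Probe set 208231_at read 6.47, 6.40 and 6.27 in S116D, against 6.23, 6.29 and 6.26 in S116A, a difference of 0.12 (-0.02 to 0.27). Probe set 208232_x_at read 7.50, 7.52 and 7.59 in S116D, against 7.53, 7.52 and 7.49 in S116A, a difference of 0.03 (-0.11 to 0.16).

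All 6 NRG1 differences were above 0, and the upper bounds of the other 5, at most 0.38, lay below the lower bound of 206343_s_at. The signal of 206343_s_at minus the mean of the other 5 on the same array was 3.89, 4.07 and 4.23 in S116D, against 3.48, 3.19 and 3.50 in S116A. The lines did not overlap in this contrast, which differed by 0.67. The probe set was chosen for its difference on these same arrays, so no p-value can be read from the contrast. The other 5 had lower signals, and the contrast is only a description of unequal change among probe sets.

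**Figure D3:**
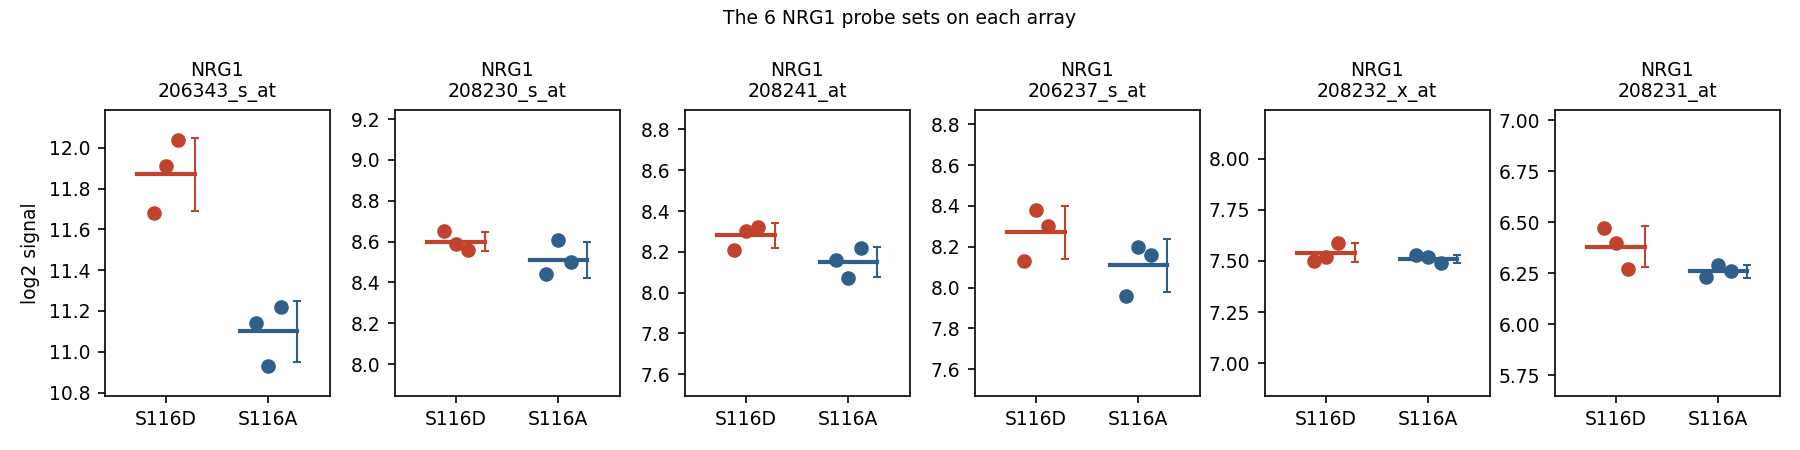
Log2 signal of the 6 NRG1 probe sets on each array, S116D left and S116A right, with the mean (line) and SD (bar) of 3 arrays, each panel spanning the same log2 range. On 206343_s_at the S116D arrays read 11.68 to 12.04 and the S116A arrays 10.93 to 11.22, and the lines overlap on the other 5.

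NRG2, a neuregulin that also binds ERBB3 and ERBB4, was read by 3 probe sets. They differed by 0.06, 0.10 and 0.20, at adjusted p between 0.19 and 0.74. Probe set 242303_at read 8.04 to 8.20 in S116D, against 7.98 to 8.01 in S116A, with no shared range (95% interval of the difference -0.06 to 0.26). NRG4, a ligand of ERBB4, read 5.36, 5.48 and 5.33 in S116D, against 5.49, 5.49 and 5.48 in S116A. This difference of -0.10 (95% interval -0.22 to 0.02, adjusted p = 0.37) was at a signal below every array median, where the lines did not overlap. NRG3, the neuregulin outside the list, read below every array median and differed by 0.00 (-0.12 to 0.12).

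The remaining EGFR ligands gave no call. BTC encodes betacellulin, and its probe set 241412_at had the largest difference of the family without a call. It read 7.33, 7.45 and 7.16 on the S116D arrays, against 7.76, 8.12 and 7.47 on the S116A arrays. The lines did not overlap, by a margin of hundredths between S116D 2 and S116A 3. The means were 7.31 ± 0.14 in S116D and 7.78 ± 0.33 in S116A (SD, n = 3 each), a difference of -0.47 (95% interval -0.82 to -0.12) with a limma adjusted p of 0.11. Within the array sets it was -0.62 and -0.17. With array weights it passed the threshold (-0.53, adjusted p = 0.048), as it did without S116A 3 (-0.63, 0.021), while without S116A 2 the difference was -0.30 (0.24). The second BTC probe set, 207326_at, read below every array median and differed by 0.00 (-0.11 to 0.11).

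EREG encodes epiregulin, and its probe set 205767_at read 4.91 to 5.13 in S116D, against 5.12 to 5.38 in S116A. The highest S116D array was above the lowest S116A array. The difference was -0.21 (95% interval -0.40 to -0.02, limma adjusted p = 0.19), with -0.36 in the first array set and -0.05 in the second. That of 1569583_at was -0.09 (-0.27 to 0.08). EGF itself, the founding ligand of the family, read 5.87, 6.17 and 5.98 in S116D, against 5.90, 5.81 and 5.68 in S116A. Its lines overlapped, the difference was 0.21 (0.01 to 0.41, adjusted p = 0.21), and it was 0.02 in the first array set and 0.39 in the second. The EGF and both EREG probe sets were among the 10 of 22 ligand probe sets that read below every array median. The table carries no detection calls, and none of these was called absent.

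**Figure D4:**
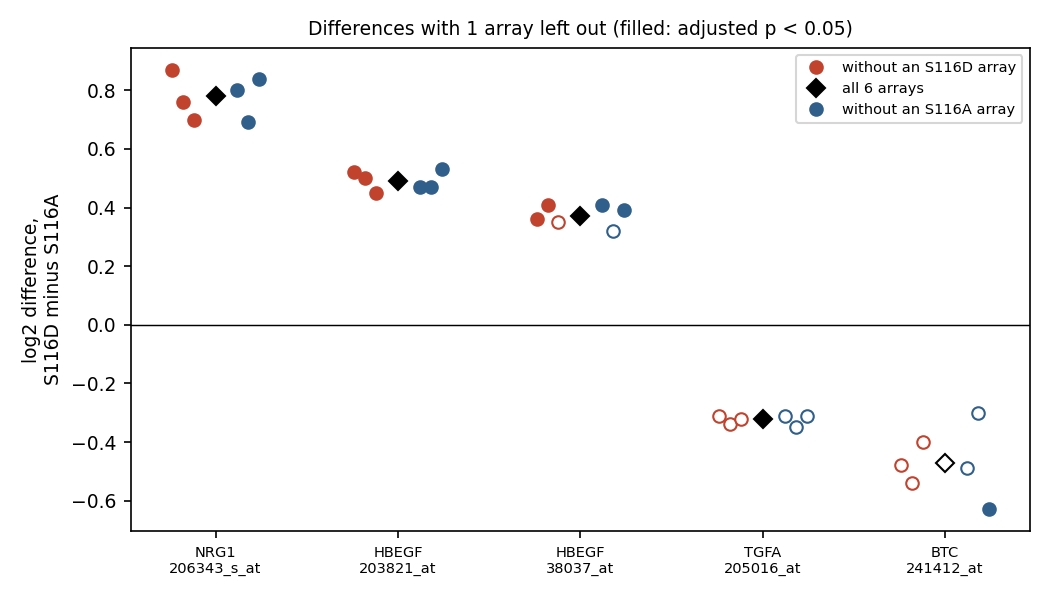
Log2 difference, S116D minus S116A, of the 4 called ligand probe sets and of BTC 241412_at with all 6 arrays (diamonds) and with 1 array left out (circles, coloured by the line of the array left out), filled where the adjusted p is under 0.05. NRG1 206343_s_at and HBEGF 203821_at stay called throughout, whereas TGFA 205016_at lies between -0.35 and -0.31 and is not called with any array left out. BTC is called with 1 of the 6 left out, S116A 3.

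Probe sets with the pattern most like that of the called ligands were sought among those of other single genes. Likeness was the root mean square distance between log2 signals centred on each probe set's own mean, over the 6 arrays. Nearest to NRG1 206343_s_at were SPTLC2 (distance 0.035), API5 (0.044) and LYPLAL1 (0.049). Nearest to HBEGF 203821_at were ERMARD (0.019), VEZT (0.021) and TLCD5 (0.028). With a pair of lines, such likeness mostly reflects a difference of the same size.

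Receptors, processing enzymes and signalling genes of the same pathway were set beside the ligands. Over 205 probe sets of 70 genes, 11 were higher and 17 lower in S116D, or 13.7% called, against 8.55% of all probe sets. The count was 15 without S116A 1 and 16 without S116D 2, and 46 with the array sets as a block. The count over all probe sets moved as well, from 4672 to 2775, 2608 and 8099 in the same order.

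None of 21 probe sets for the 4 ERBB receptors was called by limma, and 2 had an unadjusted p under 0.05. EGFR was read by 9 probe sets that differed by -0.28 to 0.14. Its probe set 224999_at read 12.37, 12.19 and 12.10 in S116D, against 12.48, 12.60 and 12.43 in S116A, without overlap (adjusted p = 0.10). ERBB2, the co-receptor with no known ligand, which SKOV3 cells are known to carry in amplified form, differed by 0.13, 0.39 and 0.79 on its 3 probe sets. The largest, 234354_x_at, read 9.13, 8.48 and 8.43 in S116D, against 8.14, 8.14 and 7.40 in S116A, without overlap, at a limma adjusted p of 0.090. It differed by 0.98 and 1.06 within the array sets. ERBB3 differed by -0.16 to 0.12 on 5 probe sets and ERBB4 by -0.10 to 0.05 on 4.

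Of 16 genes for ligand shedding and transport, TIMP1 rose and ADAM9 and ADAM12 fell. These calls were on 3 of 46 probe sets (6.52%, against 8.55% of all probe sets). TIMP1, a secreted inhibitor of metalloproteases, rose 1.50-fold (limma adjusted p = 0.0059). ADAM9 and ADAM12, metalloproteases known to be able to cleave the HB-EGF precursor, fell 1.29-fold on 1 of 3 probe sets and 1.43-fold on 1 of 5. ADAM10 and ADAM17, the main sheddases of the family, were not called.

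Of the receptor-proximal genes, 15 of 21 were measured. PIK3R1, the regulatory subunit of PI3-kinase, rose on all 3 of its probe sets, by 0.67 to 0.90. PTPN11, the phosphatase SHP2 that carries receptor signals to RAS, fell on 4 of 6, and HRAS fell by 0.45 on its single probe set. These made 8 calls on 53 probe sets (15.1%, against 8.55% of all probe sets).

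Among negative regulators 17 of 18 genes were measured, with 8 of 41 probe sets called (19.5%, against 8.55% of all probe sets). DUSP4, a nuclear phosphatase of ERK, fell on all 3 probe sets, with differences from -3.94 to -1.44, and CBLB, a ubiquitin ligase for activated receptors, fell on 2 of 3. SPRY1 fell on 1 of 2 (by 0.44), whereas SPRED1, an inhibitor of the RAS to RAF step, rose on 2 of 3 (by 0.49 and 0.93).

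Early response genes, which growth factors induce, gave 9 calls on 43 probe sets (20.9%), against 8.55% of all probe sets. Their median difference was -0.132, against 0.003 over all probe sets. FOSL2, an AP-1 subunit, rose on all 5 of its probe sets, by 0.38 to 0.95. FOSL1, another AP-1 subunit, fell by 0.79, MYC by 0.78, and CCND1, cyclin D1, on both of its probe sets, by 0.35 and 0.53. All other measured genes of this list had no called probe set.

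**Figure D5:**
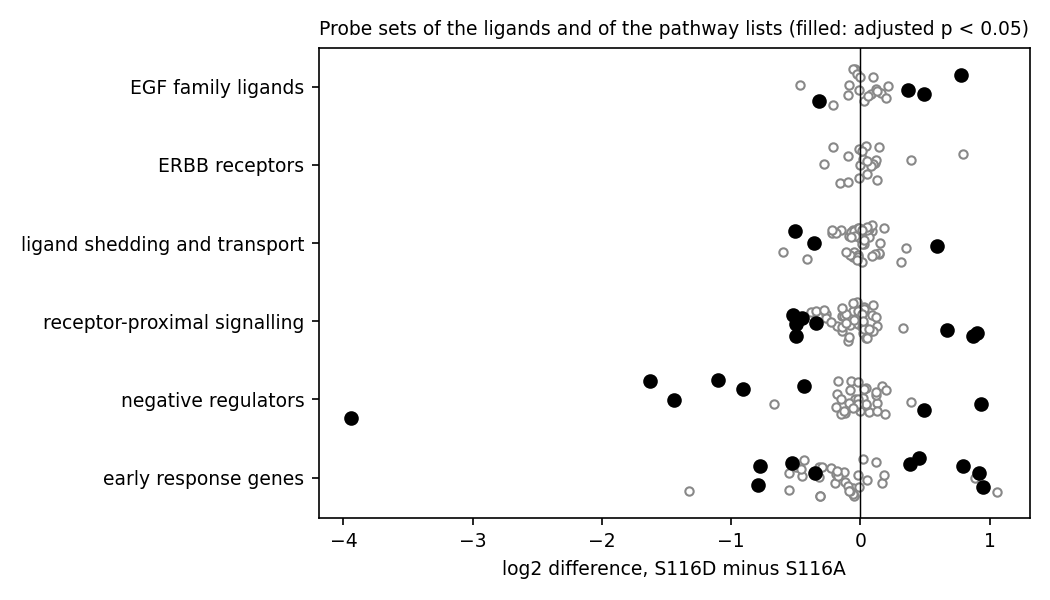
Log2 difference, S116D minus S116A, of each probe set of the ligands and of 5 pathway lists, with filled points at an adjusted p under 0.05. The ligand calls lie between -0.32 and 0.78, the receptors have no filled point, and the lowest point, at -3.94, is DUSP4 204014_at.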

How the data were processed

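The deposited table held 1 log2 signal per probe set and array, for 54675 probe sets. The values were taken as log2 because they lay within a narrow range with nearly equal quartiles on all arrays. MAS5 and RMA are named in the submitters' processing notes without their roles, and the sources used here give neither versions nor background correction or filters. RNA labelled with biotin was used, per the labels' protocols. Control probe sets (62) were left out. GEO's platform annotation, with symbols updated by gene identifier through RefSeq (GRCh38.p14), assigned 41091 probe sets to 1 gene and 1801 to several, while 11721 are unnamed here. Only probe sets with 1 gene were named.

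Groups came from sample titles. S116D was compared with S116A by limma 3.58.1 in R 4.3.3 (lmFit, eBayes with an intensity trend, no covariate), with Benjamini-Hochberg adjustment over all 54613 probe sets and a threshold of 0.05. The fit was tested on simulated data. SE is limma's moderated standard error, SD is over 3 arrays, and the number of arrays limits precision. The members, the pathway lists and the rule for named genes (all members, all receptors, and up to 4 called genes of each other list) were chosen with earlier results of these data known. The block of array sets and the motifs were chosen after seeing the data.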

Additional observations from a re-analysis of the deposited data

How the results depend on the processing

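Quantile normalization, median centring, dropping the intensity trend, array weights, the replicate block and testing only probe sets above the median signal kept all 4 ligand calls, as did the array sets as a block. Over these settings and 1 probe set per gene, none of 151 ligand values lost its call, 3 gained one and no called value changed sign. Uncalled values near 0 could change sign, as did HBEGF 222076_at (-0.01 in the main fit, 0.02 with array weights). With 1 array left out, 123 of 132 values kept their call or lack of one, 8 lost it, 1 gained one and no called value changed sign. Most of these values belong to the 18 uncalled probe sets, which had no call to lose, so 132 overstates how stable the calls were. All 8 losses fell on the 4 called probe sets. TGFA 205016_at lost its call with any array left out, and HBEGF 38037_at without S116A 2 or without S116D 3. The other called probe sets kept theirs throughout. The count of ligand calls ranged from 2 to 4 with 1 array left out, the pathway count from 15 to 28, and the count over all probe sets from 2608 to 4674 (leaving out S116D 2 gave 2608, S116D 3 gave 2772, S116A 1 gave 2775 and S116A 2 gave 2986). With the array sets as a block, added after seeing the data, 8099 of 54613 probe sets and 46 of 205 pathway probe sets were called. With 1 probe set per gene the counts were 2407 of 19775 genes, 3 of 8 ligands and 13 of 70 pathway genes. Further probe sets of a gene were left out there, so these are not comparable with counts of probe sets. The labels name no shared culture or day, so same-numbered arrays were not taken as pairs in the main fit. Their deviations from the line means correlated at 0.45, -0.0401 and 0.442 for numbers 1, 2 and 3. These values do not settle whether the numbers mark pairs. With the replicate block, 7340 of 54613 probe sets, 50 of 205 pathway probe sets and 6 of 22 ligand probe sets were called. The main fit called 4672, 28 and 4. The added ligand probe sets were BTC 241412_at (-0.47, limma adjusted p = 0.0080) and NRG2 206879_s_at (0.20, adjusted p = 0.045). Signal over background could not be judged, which limits the 10 ligand probe sets below every array median.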
